A study of Mus musculus with 21 samples.

Results

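Oocytes in which both *Kif11* alleles were deleted by drivers acting late, in oocytes of follicles, were compared with oocytes in which the remaining intact allele was deleted early, in meiotic prophase. The comparison covered 8 of the 21 libraries of the series, chosen by the genotypes on their labels and not by any measured value. The late-driver side held 2 libraries labelled "FloxFlox, Gdf9-Cre" (fl/fl Gdf9-Cre) and 2 labelled "FloxFlox, Zp3-Cre" (fl/fl Zp3-Cre), in which both *Kif11* alleles were floxed. The early side held 4 libraries labelled "FloxDel, Spo11-Cre" (fl/del Spo11-Cre), in which 1 allele was floxed and the other was a constitutive deletion present in every cell of the mouse. The other 13 libraries were wt/fl (4), wt/fl Spo11-Cre (5) and fl/del without Cre (4), and they entered the model and served as a range. The mice were engineered on a C57BL/6 background. According to the methods, oocytes came from females of 3 to 4 months primed with equine chorionic gonadotropin or HyperOva, were full-grown and at the germinal vesicle stage, and were pooled by 3 per library, with 1 or 2 libraries from each mouse. Poly(A) RNA was amplified as full-length cDNA (SMART-Seq v4), fragmented with Tn5 and sequenced as paired reads without strand information. The fl/fl libraries are not among the 17 that the methods describe, and the labels give their mice no number. Driver, genotype and library set therefore differ together between the 2 sides and cannot be told apart. The 4 fl/del Spo11-Cre libraries bear 2 name prefixes, with 2 libraries to each, and a prefix may name a mouse. P-values thus measure the spread between libraries, some of which may share a mouse. Comparisons of 4 against 4 libraries, by permutation or by overlap, treat each library as separate, which a shared mouse would not allow.

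KIF11 is the kinesin that slides antiparallel microtubules apart and gives the spindle its bipolar shape. *Spo11* encodes the enzyme that makes meiotic DNA breaks and its promoter is active in early meiotic prophase, before the oocyte grows. *Gdf9* encodes a growth factor of the oocyte, and Cre under its promoter acts from the early follicle on. *Zp3* encodes a zona pellucida protein, and Cre under its promoter acts later, in the growing oocyte. A full-grown oocyte transcribes little and lives on maternal mRNA stored while it grew, which it later translates, silences or degrades during meiosis and in the early embryo.

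The targeted gene was low in both sides. *Kif11* (chromosome 19, 37376403 to 37421859, + strand, GRCm38) counted over all exons was at 5.11 and 4.90 CPM (counts scaled to a library total of 1000000) in the Gdf9-Cre libraries, at 7.95 and 4.27 CPM in the Zp3-Cre libraries and at 2.70, 1.53, 1.08 and 1.82 CPM in the fl/del Spo11-Cre libraries. The other 13 libraries held 7.49 to 43.2 CPM. The late-driver libraries did not overlap with the early ones, and their level was 2.93-fold higher (log2 fold change 1.55, SE 0.28, edgeR adjusted p = 1.50e-04), although 1 Zp3-Cre library lay within the range of the other 13. This difference lies in the targeted gene itself and is given as a check of the labels.

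All 8 libraries held the defining transcripts of the oocyte and low summed levels of the markers of its companions. The 12 oocyte markers (among them *Zp1*, *Zp2*, *Bmp15* and *Nlrp5*) summed to 26216 to 34494 CPM in the fl/fl libraries and to 25501 to 31850.2 CPM in fl/del Spo11-Cre, with 1 of 12 lower (*Zp3*) and a median log2 fold change of 0.06. Markers of granulosa, theca and cumulus cells summed to 85.8 to 125 against 95.7 to 114 CPM, with 0 of 16 tested called by edgeR (2 at an unadjusted p under 0.05, 0 called by DESeq2, median log2 fold change 0.86), and markers of blood and stroma to 21.9 to 33.8 against 31.2 to 38.9 CPM, with 9 of 13 at 0 in all 8 libraries and 0 of 3 tested called by edgeR (0 at an unadjusted p under 0.05, 0 called by DESeq2). *Cyp19a1*, a granulosa marker, had a mean of 65.3 CPM in fl/fl and 67.9 CPM in fl/del Spo11-Cre. *Nr5a2* was at 28.9 and 27.6 CPM, and *Pecam1*, of the blood and stroma list, at 21.1 and 25.4 CPM. These genes held most of the sums of their lists. The other follicle markers had few reads and went both ways, with 9 of the 16 log2 fold changes above 0. *Inha* had means of 1.41 CPM in fl/fl and 0.03 CPM in fl/del Spo11-Cre, *Cyp11a1* 1.36 and 0.527, and *Gja1* 0.511 and 0. *Inhba* was at 0.215 and 0.390 CPM and *Lhcgr* at 0 and 0.184 CPM. Traces of follicle cells in single libraries were not tested. The fl/fl libraries were shallower, with 7801470 to 10759741 counts against 13155893 to 17668498 (exact permutation test, two-sided, p = 0.0286, the smallest that 4 against 4 libraries allow). Their trimmed-mean (TMM) library factors were 1.03 to 1.10 against 0.982 to 1.02, so that fold changes lie slightly below the ratios of the printed CPM. Thinned to the same total, 18201 to 18863 genes were detected against 17886 to 18433 (exact permutation p = 0.171). The part of library set in the results below was not tested, and that of depth was looked at only by thinning, as an alternative.

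Of 23225 genes tested, 281 were higher in the late-driver libraries (1.21%) and 392 were lower (1.69%), together 673 (2.9%), by the edgeR quasi-likelihood test at a Benjamini-Hochberg adjusted p under 0.05. At an unadjusted p under 0.05 there were 3254, and DESeq2 called 1065. Where a pair of ranges is given for a gene, the first covers the 4 late-driver libraries and the second the 4 fl/del Spo11-Cre libraries. Fold changes are late-driver minus fl/del Spo11-Cre, and a bare value in parentheses after a gene is its log2 fold change. The differences were mostly small: the median absolute log2 fold change of the called genes was 0.59, and 60 genes in each direction differed by more than 2-fold. In 448 of the 673 the 4 late-driver libraries did not overlap with the 4 early ones, against 6.35% of all genes tested. In 172 they also lay outside the range of all other 17 libraries, against 1.22% of all genes tested, which was 37.4% of the higher genes and 17.1% of the lower ones. The balance of the directions changed with thinning and with the unit. With libraries thinned to the same total, 303 genes were higher and 328 lower (48.0% in the higher direction), and 85.7% of the 673 calls were kept. With limma on the TPM values that the authors deposited, 408 genes were higher and 163 lower, that is 71.5% of calls in the higher direction in place of 41.8%, and the median log2 fold change of all genes moved from -0.07 to 0.04.

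Genes with many reads were more often lower than higher. Of 118 genes with a mean over 1000 CPM in the 8 libraries, 35 were lower (29.7%) and 1 was higher, with a median log2 fold change of -0.15. Between 100 and 1000 CPM, 166 of 2045 genes were lower and 93 higher. From 10 to 100 CPM the numbers were 147 and 152 of 5665, and from 5 to 10 CPM 19 and 18 of 1769. These classes are by reads and not by length. The 100 genes with the most reads took 22.6 to 26.0% of the counts of the fl/fl libraries and 25.3 to 27.1% of those of fl/del Spo11-Cre (exact permutation p = 0.0571). On TPM values, 14 of the 118 were lower and 6 higher, and the count of lower genes was 21 without Zp3-Cre replicate 1, 18 with libraries of the same name prefix summed and 15 with the 8 libraries alone.

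**Figure D1:**
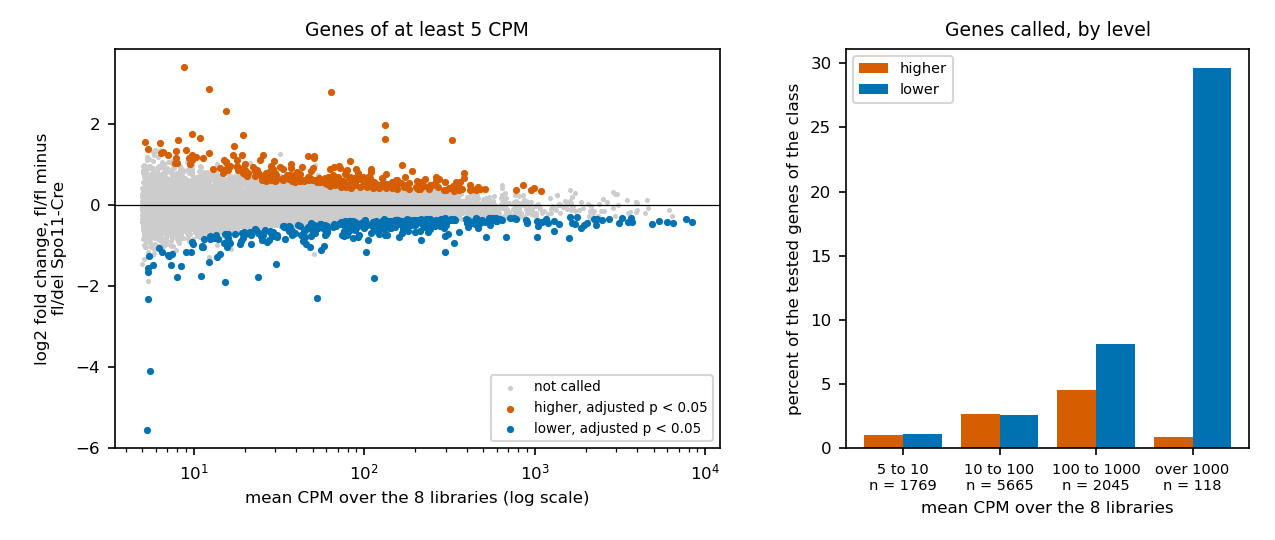
Left, log2 fold change (fl/fl minus fl/del Spo11-Cre) of every gene with a mean of at least 5 CPM, against that mean on a log scale, with called genes in colour. Right, percent of the tested genes of each level class that were higher or lower, with the bars starting at 0: above 1000 CPM, 29.7% were lower and 0.847% higher.

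The 5 lower genes with the most reads were *H1foo*, *Tcl1*, *Fbxw24*, *Ldhb* and *Obox2*. *H1foo*, the oocyte linker histone, was at 6682 and 8094 CPM in Gdf9-Cre, 7451 and 7243 CPM in Zp3-Cre and 9387, 9483, 9760.5 and 9182 CPM in fl/del Spo11-Cre. All 4 late-driver libraries lay below the other 17, whose lowest was 8624 CPM (log2 fold change -0.44, SE 0.08, edgeR adjusted p = 3.40e-04). *Tcl1*, a coactivator of the kinase AKT, held 5108 and 5084 CPM in Gdf9-Cre and 5331 and 5565 CPM in Zp3-Cre against 6914, 6912, 6449 and 6454 CPM in fl/del Spo11-Cre. It too lay below all other libraries (log2 fold change -0.43, SE 0.08, edgeR adjusted p = 9.24e-04). *Ldhb*, a lactate dehydrogenase subunit, overlapped between the sides, at 5420.3 to 8124 against 7326 to 9573 CPM (log2 fold change -0.37, edgeR adjusted p = 0.0143). The homeobox gene *Obox2* was at 4430.4 to 5111 against 5046 to 7000.4 CPM (log2 fold change -0.41, edgeR adjusted p = 0.00638), and its near copy *Obox1* at 2308 to 2631 against 2556 to 3264 CPM (log2 fold change -0.36, edgeR adjusted p = 0.0152). The calls of *Ldhb*, *Obox2* and *Obox1* ended without 1 of 4, 1 and 3 libraries, with adjusted p up to 0.160, 0.100 and 0.112. The transcripts of *Obox1* and *Obox2* share 60.5% and 62.4% of their 50-base windows with another gene, so the values of both are uncertain. They were the 2 called members of 17 tested genes for oocyte transcription factors, beside 1.69% lower over all genes. The median of the 17 was -0.29, against -0.07 for all genes.

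Most F-box genes of the *Fbxw* cluster fell. These genes encode F-box and WD-repeat proteins of ubiquitin ligases, and the cluster lies on chromosome 9 from 109139447 to 109790670. It was singled out after its values were seen, as 7 called pairs of neighbours lay in it. Of 15 members tested 10 were lower and 0 higher. The share of lower genes was 1.69% over all genes, 8.12% at 100 to 1000 CPM and 29.7% over 1000 CPM. The members had a median log2 fold change of -0.37 and a range of -0.59 to -0.20. Their summed level was 21065 to 27728 CPM in the late-driver libraries, below the 29049 to 32852 CPM of fl/del Spo11-Cre and the 29470 to 32681 CPM of the other 13 libraries. *Fbxw24*, the member with the most reads, was at 6099 and 5988 CPM in Gdf9-Cre, 4223 and 6356 CPM in Zp3-Cre and 7889.9, 7702, 7043 and 6487 CPM in fl/del Spo11-Cre (log2 fold change -0.44, SE 0.10, edgeR adjusted p = 0.00278). *Fbxw16* differed most, with 1374 to 1683 against 1961 to 2277 CPM (log2 fold change -0.59, edgeR adjusted p = 1.67e-05). Without Zp3-Cre replicate 1 the adjusted p of *Fbxw24* was 0.0687. The median was below 0 in every alternative, but the count of lower members rested on single libraries: it was 1 without Zp3-Cre replicate 1, 5 and 6 without fl/del Spo11-Cre replicates 1 and 2, 2 on TPM values, 1 with the 8 libraries alone and 2 with libraries of the same name prefix summed. Of the 15 members 2 share most of their windows with another gene.

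Of the 5 higher genes with the most reads, *Sub1*, a transcriptional coactivator that binds single-stranded DNA, was at 1092 to 1369 CPM against 833 to 1030.2 CPM and above all other libraries (log2 fold change 0.33, edgeR adjusted p = 0.0376). *Tm9sf2*, a membrane protein of the endosome and Golgi, was at 808 to 967 against 623 to 758 CPM (log2 fold change 0.36, edgeR adjusted p = 0.0455). *Oosp3*, which encodes a secreted oocyte protein, overlapped by a narrow margin, with 941 to 1342 against 753 to 942 CPM (log2 fold change 0.40, edgeR adjusted p = 0.0145). *Dnmt1*, the maintenance DNA methyltransferase, stood at 1362 and 1346 CPM in Gdf9-Cre, but at 1022 and 699 CPM in Zp3-Cre, where it overlapped with the 717 to 902 CPM of fl/del Spo11-Cre (log2 fold change 0.36, edgeR adjusted p = 0.0349 for both drivers together). *mt-Cytb*, of the mitochondrial genome, was at 756 to 1495 against 601 to 767 CPM (log2 fold change 0.48, edgeR adjusted p = 0.0465). The calls of these 5 genes were each lost without 1 of at least 3 libraries, with adjusted p up to 0.597 (*mt-Cytb*).

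**Figure D2:**
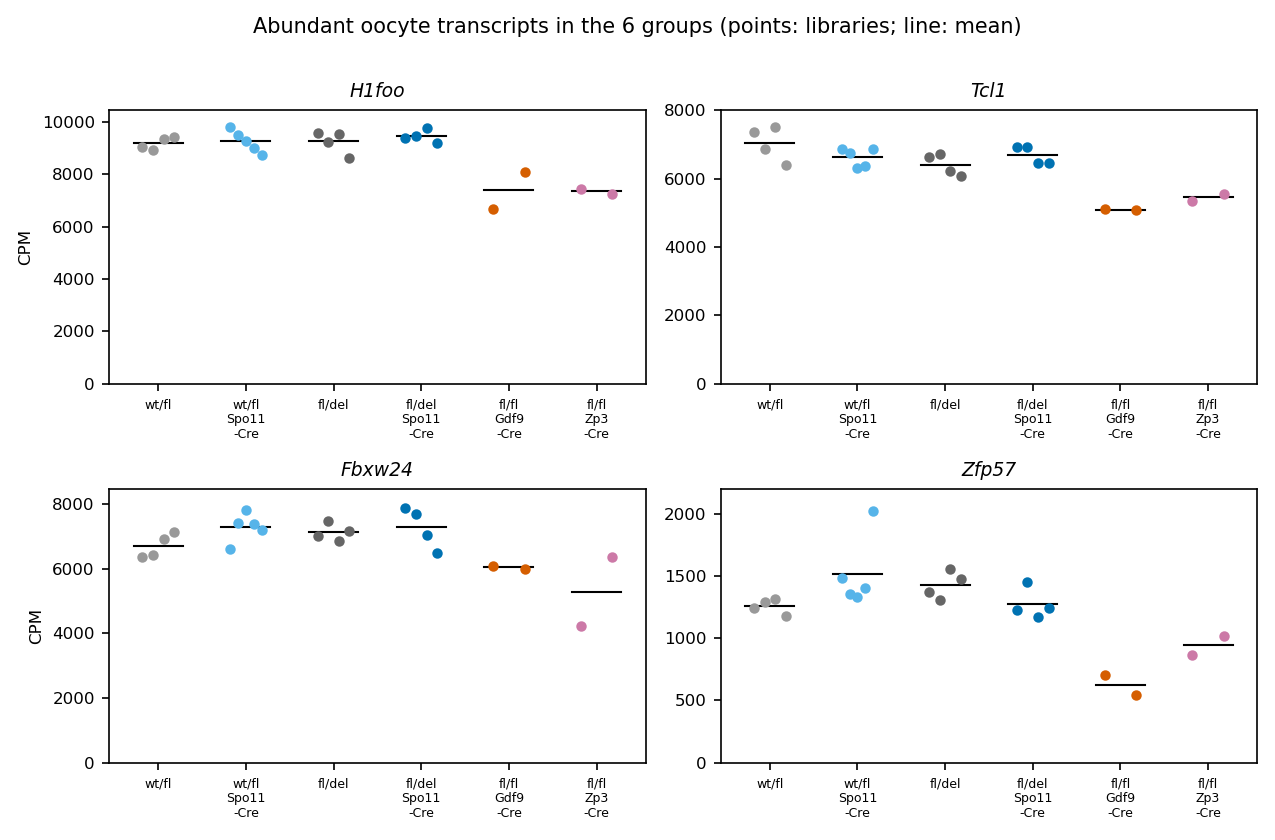
CPM of *H1foo*, *Tcl1*, *Fbxw24* and *Zfp57* in each library (points) of the 6 groups, with the group mean (line) and axes from 0. The 4 fl/fl libraries of *H1foo*, *Tcl1* and *Zfp57* lie below all other 17, and in *Fbxw24* the highest Zp3-Cre library comes close to the lowest of the other groups.

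The protein-coding genes with the largest differences were mostly of few reads. *Arpc3*, a subunit of the ARP2/3 complex that nucleates branched actin, stood out in size and level (chromosome 5, 122391878 to 122414184, + strand). It was at 255 and 259 CPM in Gdf9-Cre, at 198 and 146 CPM in Zp3-Cre and at 44.9, 54.7, 47.7 and 56.9 CPM in fl/del Spo11-Cre. The other 13 libraries held 29.6 to 69.4 CPM, so that every late-driver library lay above all 17 others, on average 3.88-fold above fl/del Spo11-Cre (log2 fold change 1.96, SE 0.15, edgeR adjusted p = 8.98e-15). It kept its call under all 20 alternatives. Within 1 megabase, 3 of 53 tested genes were higher and 0 lower, beside 1.21% and 1.69% over all genes. These were *Atp2a2* (0.65), the calcium pump of the endoplasmic reticulum, *Atxn2* (0.55), an RNA-binding protein, and *Gm43409*. The last was at 0 in all fl/del Spo11-Cre libraries and at 1.49 to 5.66 CPM in the late-driver ones. Genes named below had called neighbours too, 7 lower of 78 for *Ccdc71* and 6 lower of 68 for *Syt12*. *Arpc3* has no window in common with another transcript.

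Other genes rose from low levels. *Ccdc71*, a coiled-coil protein, was at 28.9 and 19.5 CPM in Gdf9-Cre and 25.5 and 29.2 CPM in Zp3-Cre against 8.11, 9.68, 7.26 and 10.4 CPM in fl/del Spo11-Cre (log2 fold change 1.46, SE 0.25, edgeR adjusted p = 1.15e-04). *Prr18*, a proline-rich protein, was at 11.2 and 11.5 CPM in Gdf9-Cre and 21.7 and 8.79 CPM in Zp3-Cre against 3.84, 5.09, 5.76 and 4.64 CPM in fl/del Spo11-Cre (log2 fold change 1.35, SE 0.32, edgeR adjusted p = 0.00824). Both were above all 17 other libraries, though *Prr18* lost its call without Zp3-Cre replicate 1 (adjusted p = 0.195). *Rangap1*, the activator of RAN GTP hydrolysis that works in nuclear transport and at kinetochores, reached 6.69 to 10.1 against 0.906 to 3.84 CPM (log2 fold change 1.53, edgeR adjusted p = 0.0273), within the range of the other 13 libraries. *Csk*, the kinase that restrains SRC, was at 5.98 to 11.5 against 1.75 to 3.41 CPM (log2 fold change 1.37, edgeR adjusted p = 0.0230), and *Cep170b*, a centrosomal protein, at 8.55 to 16.2 against 3.41 to 5.09 CPM (log2 fold change 1.32, edgeR adjusted p = 0.0150). *Cdc5l*, a splicing factor, was at 2.31 to 16.8 against 0.427 to 1.86 CPM (log2 fold change 2.27, edgeR adjusted p = 0.0315), and 41.3% of its windows occur in another gene. *Rangap1*, *Csk*, *Cep170b* and *Cdc5l* each lost their call without any 1 of 4 libraries, with adjusted p up to 0.288.

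Of the genes with the largest decreases, *Raly*, an RNA-binding protein of the hnRNP family, was at 5.86 and 2.50 CPM in Gdf9-Cre, 11.9 and 8.91 CPM in Zp3-Cre and 15.6, 21.6, 24.2 and 32.4 CPM in fl/del Spo11-Cre. The sides did not overlap (log2 fold change -1.90, SE 0.26, edgeR adjusted p = 1.07e-06). *Tmem39b*, a membrane protein of the endoplasmic reticulum, was at 16.2 and 9.90 CPM in Gdf9-Cre and 21.3 and 21.4 CPM in Zp3-Cre against 23.8, 42.7, 43.8 and 64.2 CPM in fl/del Spo11-Cre (log2 fold change -1.46, SE 0.21, edgeR adjusted p = 3.23e-06). *Phf19*, a Polycomb protein that binds methylated histone H3, was at 6.41 and 7.07 CPM in Gdf9-Cre and 5.38 and 9.04 CPM in Zp3-Cre against 19.3, 18.2, 18.8 and 14.4 CPM in fl/del Spo11-Cre (log2 fold change -1.42, SE 0.24, edgeR adjusted p = 7.90e-05). For these 3 genes the late-driver libraries reached into the range of the other 13. *Glul*, glutamine synthetase, was at 5.26 to 11.5 against 14.3 to 23.6 CPM (log2 fold change -1.29, edgeR adjusted p = 3.31e-04), and *Tex16*, a testis-expressed gene of the X chromosome, at 0.513 to 6.60 against 8.44 to 14.9 CPM (log2 fold change -1.79, edgeR adjusted p = 5.70e-04). *Ocm*, the calcium-binding oncomodulin, was at 3.90 to 5.26 against 6.18 to 14.5 CPM and lay below all other libraries (log2 fold change -1.25, edgeR adjusted p = 0.00809, and 0.108 without fl/del Spo11-Cre replicate 2). *Syt12*, a synaptotagmin (log2 fold change -1.57, edgeR adjusted p = 0.0206), *Morn4* (log2 fold change -1.27, edgeR adjusted p = 0.00902) and *Mdga2*, a cell adhesion protein (log2 fold change -1.23, edgeR adjusted p = 0.0149), had their call end without 1 of 5, 2 and 3 libraries, with adjusted p up to 0.111, 0.0744 and 0.198.

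**Figure D3:**
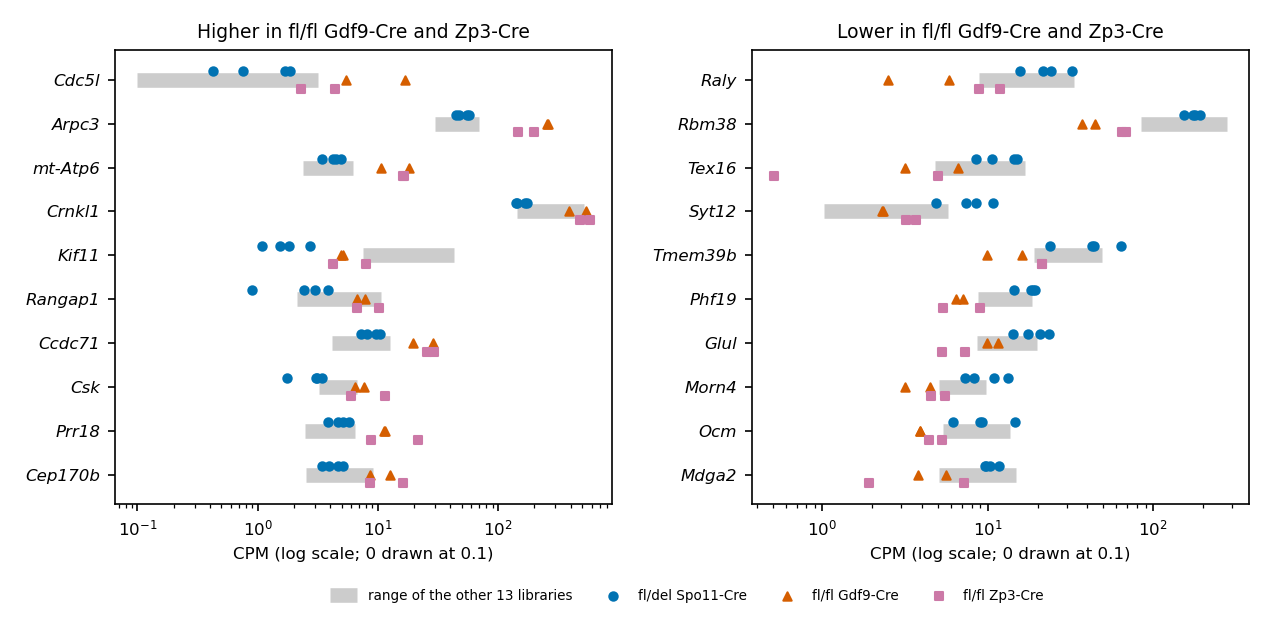
CPM on a log scale (0 drawn at 0.1) of the 10 protein-coding genes with the largest called increase (left) and decrease (right) in each of the 8 libraries, with the range of the other 13 libraries as a grey bar. *Arpc3* at 146 to 259 CPM lies far to the right of its bar, and *Rbm38* at 37.3 to 68.4 CPM to the left of its bar.

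Some large differences followed the presence of Spo11-Cre in all 6 groups. *Rae1* (chromosome 2, 173000117 to 173015739, + strand), a nuclear pore and mRNA export protein, and *Rbm38* (chromosome 2, 173020498 to 173034734, + strand), an RNA-binding protein, lie beside *Spo11* (chromosome 2, 172977700 to 172993576, + strand). *Rae1* was at 200.4 and 179.9 CPM in Gdf9-Cre, 195 and 184 CPM in Zp3-Cre and 431, 344, 410.4 and 432 CPM in fl/del Spo11-Cre (log2 fold change -1.17, SE 0.10, edgeR adjusted p = 4.90e-13). The late-driver libraries were at the level of the groups without Cre, wt/fl at 192 to 216 CPM and fl/del at 169.9 to 213 CPM, while wt/fl Spo11-Cre was at 320.3 to 393 CPM. *Rbm38* was at 44.8 and 37.3 CPM in Gdf9-Cre and 65.1 and 68.4 CPM in Zp3-Cre against 175, 193, 154 and 178 CPM in fl/del Spo11-Cre (log2 fold change -1.82, SE 0.14, edgeR adjusted p = 7.57e-16). Here the late-driver libraries were below the groups without Cre too, which held 90.4 to 140.4 and 84.3 to 90.5 CPM. The remaining 6 tested neighbours of *Spo11* were not called, and *Spo11* itself had 0 counts in all 8 libraries, which allows a level of up to 0.385 CPM at the lowest total (3 counts, counting error only). *Gdf9* was at 3898 to 5426 against 3249 to 5265 CPM (log2 fold change 0.10, edgeR adjusted p = 0.754) with 0 of 7 tested neighbours called by edgeR (1 at an unadjusted p under 0.05, 0 by DESeq2). *Zp3* was at 2897 to 3724 against 3775 to 4256 CPM (log2 fold change -0.34, edgeR adjusted p = 0.0216). Of its 10 neighbours 2 were lower, beside 1.69% over all genes. These were *Mdh2* (-0.39), mitochondrial malate dehydrogenase, and *Hspb1* (-1.05), a small heat shock protein with 51.7% shared windows. The calls of *Zp3*, *Mdh2* and *Hspb1* ended without any 1 of 4, 3 and 5 libraries, with adjusted p up to 0.148, 0.101 and 0.180. Of the 10 tested neighbours of *Kif11* edgeR called 0 (1 at an unadjusted p under 0.05, 0 by DESeq2).

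*Crnkl1*, a splicing factor (chromosome 2, 145917479 to 145935014, - strand), followed Spo11-Cre in all groups but wt/fl. Its neighbour *Naa20*, a subunit of an N-terminal acetyltransferase (chromosome 2, 145902099 to 145916425, + strand), followed it in all 6 groups, in the opposite direction. *Crnkl1* was at 535 and 391 CPM in Gdf9-Cre, 482 and 579 CPM in Zp3-Cre and 143, 139.9, 175 and 166 CPM in fl/del Spo11-Cre (log2 fold change 1.59, SE 0.18, edgeR adjusted p = 1.06e-08). In fl/del without Cre it was at 416 to 477 CPM and in wt/fl Spo11-Cre at 145 to 164 CPM. But wt/fl held libraries of both levels, replicates 1 and 2 at 516 and 487 CPM and replicates 3 and 4 at 156 and 158 CPM. Replicates 1 and 2 share a library name prefix, and replicates 3 and 4 share another, so the levels of wt/fl split by prefix. *Naa20* was at 109 and 144 CPM in Gdf9-Cre and 105 and 131 CPM in Zp3-Cre against 202, 192, 177 and 229 CPM in fl/del Spo11-Cre (log2 fold change -0.79, SE 0.12, edgeR adjusted p = 1.31e-05), and all 4 wt/fl libraries were low, at 98.6 to 122 CPM. *Cul1*, the scaffold of SCF ubiquitin ligases, and *Ezh2*, the Polycomb methyltransferase, lie together on chromosome 6 and were picked after their values were seen. *Cul1* was at 1356 and 1142 CPM in Gdf9-Cre and 952 and 1306 CPM in Zp3-Cre against 1973, 1944, 2117 and 1903 CPM in fl/del Spo11-Cre (log2 fold change -0.82, SE 0.10, edgeR adjusted p = 1.06e-08). *Ezh2* was at 354 and 352 CPM in Gdf9-Cre and 347 and 304 CPM in Zp3-Cre against 457, 455, 472 and 492 CPM in fl/del Spo11-Cre (log2 fold change -0.55, SE 0.09, edgeR adjusted p = 7.90e-05). Both were high in the 5 wt/fl Spo11-Cre libraries, at 2009.9 to 2199 and 419 to 473 CPM, and low in both groups without Cre.

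The comparison of wt/fl Spo11-Cre with wt/fl was made after the data were seen. It shares no library with the late against early comparison, but both came from the same fit with a shared spread. It called 252 genes (1.09%). Of these, 34 were among the 673 (13.5% of the 252 and 5.05% of the 673), where 2.9% of all genes tested were among the 673. For 30 of the 34 the sign was opposite. There the late-driver libraries departed from fl/del Spo11-Cre in the direction in which wt/fl departed, on average, from wt/fl Spo11-Cre. The share of opposite signs over all genes was not worked out. *Rae1* (0.79 with Spo11-Cre), *Rbm38* (0.88), *Crnkl1* (-1.09), *Naa20* (0.84), *Cul1* (0.72) and *Ezh2* (0.66) were among the 30. The 4 with the same sign were *Arpc3*, *Eif2s2*, *Stk25* and *Kat8*. The rest of the 673 were not called in that comparison, which does not show that they lacked a difference there.

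**Figure D4:**
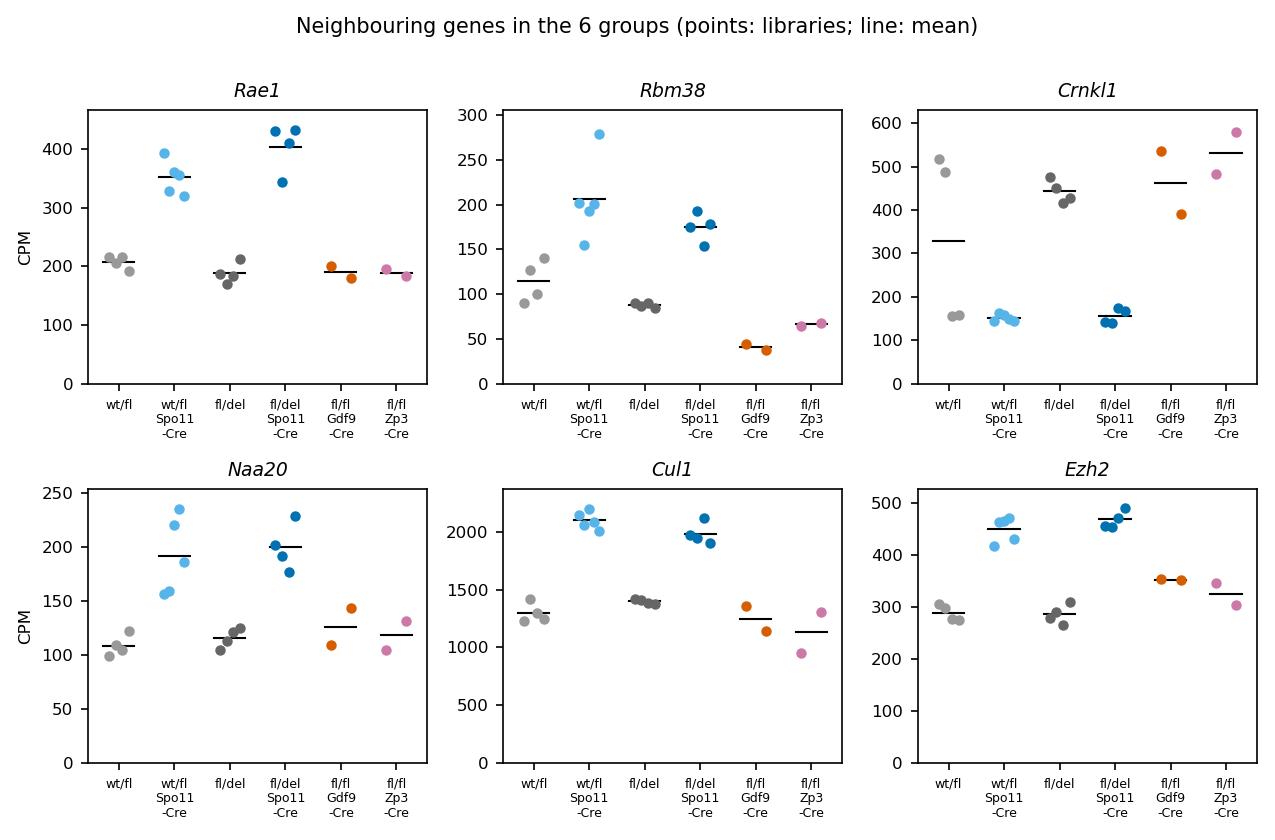
CPM of *Rae1*, *Rbm38*, *Crnkl1*, *Naa20*, *Cul1* and *Ezh2* in each library (points) of the 6 groups, with the group mean (line) and axes from 0. *Rae1* is at 320 to 432 CPM in both Spo11-Cre groups and at 170 to 216 CPM in all others, and *Crnkl1* in wt/fl has 2 libraries at each level.

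Among maternal-effect genes, which act in the egg and early embryo from the mother's store, changes went both ways. Of 31 maternal-effect genes tested 3 were higher and 4 lower, beside 1.21% and 1.69% over all genes, with a median of -0.02. *Zfp57*, the zinc finger protein that guards imprints, was at 706 and 547 CPM in Gdf9-Cre, 869 and 1016 CPM in Zp3-Cre and 1230.3, 1450.4, 1169 and 1246 CPM in fl/del Spo11-Cre. It lay below all 17 other libraries, in which it was at 1169 CPM or more (log2 fold change -0.81, SE 0.11, edgeR adjusted p = 4.57e-07). *Tet3*, the dioxygenase that oxidises methylcytosine in the zygote, was higher, at 245 and 259 CPM in Gdf9-Cre and 327 and 170.4 CPM in Zp3-Cre against 119, 138, 139 and 134 CPM in fl/del Spo11-Cre (log2 fold change 0.83, SE 0.12, edgeR adjusted p = 2.42e-06). *Uhrf1*, which recruits DNMT1 to DNA, was at 211 to 285 against 135 to 186 CPM (log2 fold change 0.55, edgeR adjusted p = 0.00271). *Nlrp9b*, an oocyte NLR gene, was at 524 and 279 CPM in Gdf9-Cre and at 393 and 879 CPM in Zp3-Cre, against 839, 893, 863 and 739 CPM (log2 fold change -0.80, SE 0.14, edgeR adjusted p = 9.09e-05). *Oog3* and *Nlrp9c* were the other lower members. Of 16 genes of the zona and of secreted oocyte proteins 2 were higher and 1 was lower, beside 1.21% and 1.69% over all genes. The higher ones were *Oosp3* and the cortical granule protease *Astl* (log2 fold change 0.49, edgeR adjusted p = 0.0415), and the lower one was *Zp3*. Among 41 tested histone genes edgeR called 0 (4 at an unadjusted p under 0.05, 0 by DESeq2), and among 22 small-RNA pathway genes 0 (2 at an unadjusted p under 0.05, 0 by DESeq2).

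Genes of the machinery that works with KIF11 in the spindle were examined next, and their counts depended on the tool. Over all 23225 genes tested, edgeR called 1.21% higher and 1.69% lower, and 3254 had an unadjusted p under 0.05. DESeq2 called 467 higher and 598 lower of the same genes. The counts below are to be read beside these. Of 38 tested kinesins other than *Kif11*, edgeR called 0 (8 at an unadjusted p under 0.05), with a median of -0.05 against -0.07 over all genes, while DESeq2 called 4 lower, *Kif20b*, *Kif22*, *Kif23* and *Cenpe*. Of 40 genes for spindle assembly 3 were called, beside 2.9% over all genes: *Rangap1* was higher, and *Tpx2*, which activates Aurora A on spindle microtubules, and *Dlgap5*, a microtubule-stabilising protein, were lower. *Tpx2* was at 400.0 and 364 CPM in Gdf9-Cre, 252 and 385 CPM in Zp3-Cre and 457, 466, 464 and 407 CPM in fl/del Spo11-Cre, just without overlap (log2 fold change -0.44, SE 0.11, edgeR adjusted p = 0.00775). Without Zp3-Cre replicate 1 its adjusted p was 0.174. *Dlgap5* was at 152 to 260.2 against 224 to 323 CPM (log2 fold change -0.44, edgeR adjusted p = 0.0251). The call of *Dlgap5* ended without any 1 of 5 libraries (adjusted p up to 0.308). Of 29 kinetochore and checkpoint genes edgeR called 1, *Pmf1*, of the MIS12 complex, lower at 66.4 to 91.2 against 98.6 to 109.8 CPM (log2 fold change -0.49, edgeR adjusted p = 0.00988, and 0.116 without Gdf9-Cre replicate 1). In this list 11 had an unadjusted p under 0.05, and DESeq2 called 7, all lower (*Knl1*, *Pmf1*, *Cdca8*, *Mad2l1*, *Cenpt*, *Cenpe* and *Bub3*). By edgeR 1 of 33 genes of meiotic prophase was lower, the cohesin subunit *Smc3*.

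Of 30 genes of the meiotic cell cycle 3 were lower and 0 higher, beside 1.69% and 1.21% over all genes, with a median of 0.00. *Ccnb1*, the cyclin that drives entry into M phase, was at 2109 and 1718 CPM in Gdf9-Cre and 1507 and 2411 CPM in Zp3-Cre against 2912, 2513, 2461 and 2605 CPM in fl/del Spo11-Cre (log2 fold change -0.52, SE 0.11, edgeR adjusted p = 0.00246), with 42.2% of its windows in another gene and an adjusted p of 0.067 without Zp3-Cre replicate 1. *Ccnb2*, the related cyclin, was at 232 and 272 CPM in Gdf9-Cre and 216 and 236 CPM in Zp3-Cre against 302, 284, 324 and 322 CPM in fl/del Spo11-Cre (log2 fold change -0.45, SE 0.10, edgeR adjusted p = 0.00353). The sides did not overlap for either cyclin, although the other 13 libraries, at 245 to 288 CPM of *Ccnb2*, reached both of them. *Cdc27*, a subunit of the anaphase-promoting complex, was the third.

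Of 18 tested tubulins edgeR called 3, all higher, beside 1.21% higher over all genes, with a median of -0.03. DESeq2 called 6, 3 of them lower (*Tubb6*, *Tubd1* and *Tuba3a*). Over all 23225 genes tested it called 467 higher and 598 lower. *Tubb2b* was at 29.2 and 32.2 CPM in Gdf9-Cre and 39.5 and 35.8 CPM in Zp3-Cre against 17.9, 13.1, 14.6 and 14.1 CPM in fl/del Spo11-Cre, above all other libraries (log2 fold change 1.10, SE 0.19, edgeR adjusted p = 1.00e-04), *Tubb3* was at 217 to 286 against 149.5 to 194 CPM (log2 fold change 0.44, edgeR adjusted p = 0.0150) and *Tuba1c* at 127 to 175 against 81.5 to 122 CPM (log2 fold change 0.52, edgeR adjusted p = 0.0287). *Tuba1c* shares 60.3% and *Tubb2b* 39.2% of its windows with another tubulin gene. The call of *Tubb3* ended without any 1 of 3 libraries and that of *Tuba1c* without any 1 of 4, with adjusted p up to 0.0936 and 0.170. The summed level of the tubulins was 4304 to 5041 against 4182 to 5060 CPM and overlapped. Of 21 genes for vesicles and cortical granules 4 were higher and 0 lower, beside 1.21% and 1.69% over all genes, with a median of 0.20. The count rested on the setting: it was 1 with the 8 libraries alone, 1 with prefixes summed and 2 without fl/del Spo11-Cre replicate 3, and DESeq2 called 4 higher and 1 lower (*Napa*). Their summed level was 2063 to 2233 against 1635 to 1806 CPM, without overlap. This sum includes the 4 called members, so it is not independent of their calls. One of the 4, *Astl*, was also counted above among zona and secreted proteins. *Rab3d*, a RAB GTPase of regulated secretion, was at 96.5 and 93.2 CPM in Gdf9-Cre and 151 and 129.8 CPM in Zp3-Cre against 74.7, 61.1, 66.2 and 64.5 CPM in fl/del Spo11-Cre (log2 fold change 0.71, SE 0.12, edgeR adjusted p = 1.15e-04). *Rab11a*, of recycling endosomes, was at 325 to 420.0 against 242 to 291 CPM, above all other libraries (log2 fold change 0.41, edgeR adjusted p = 0.00797), and *Rab3b* at 191 to 292 against 149 to 174 CPM (log2 fold change 0.44, edgeR adjusted p = 0.0150). The calls of *Rab3b* and *Astl* ended without any 1 of 3 and 5 libraries, with adjusted p up to 0.215 and 0.186. Of 23 actin genes 1 was higher and 2 were lower, beside 1.21% and 1.69% over all genes, with a median of -0.01. The higher member was *Arpc3*. Another ARP2/3 subunit, *Arpc1b*, was lower (log2 fold change -0.54, edgeR adjusted p = 0.00267). The actin-severing cofilin *Cfl1* was lower too (log2 fold change -0.36, edgeR adjusted p = 0.0172, and up to 0.109 without any 1 of 5 libraries).

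Of 31 tested genes for the storage and decay of mRNA 4 were higher and 1 lower, beside 1.21% and 1.69% over all genes, with a median of 0.03. *Dcp1a*, of the decapping complex, was at 224 to 388 against 179.5 to 216 CPM (log2 fold change 0.47, edgeR adjusted p = 0.00368). *Cnot7*, a deadenylase, was at 506 to 696 against 407 to 478 CPM and above all other libraries (log2 fold change 0.38, edgeR adjusted p = 0.0228, and up to 0.193 without any 1 of 5 libraries). *Lsm14b*, an RNA-storage protein of the oocyte, was at 73.2 and 90.7 CPM in Gdf9-Cre and 195 and 86.3 CPM in Zp3-Cre against 52.3 to 74.9 CPM (log2 fold change 0.66, edgeR adjusted p = 0.00535, and 0.332 without Zp3-Cre replicate 1). The fourth was *Cnot6l*. *Pabpn1l*, the poly(A)-binding protein of the oocyte, was the lower member, at 289.6 to 591 against 369.6 to 721 CPM (log2 fold change -0.59, edgeR adjusted p = 0.00235, and 0.0594 without fl/del Spo11-Cre replicate 4).

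Genes for protein synthesis, folding, degradation and energy are given against 1.69% lower over all genes and 8.12% lower among genes at 100 to 1000 CPM. Both shares are by edgeR. Of 85 tested ribosomal protein genes 6 were lower and 0 higher, with a median of 0.01. *Rps6* (-0.57), *Rpl35a* (-0.76), *Rpl10* (-0.50) and *Rpl5* (-0.37) led these, and all but *Rpl35a* of the 4 share most of their windows with another gene. The call of *Rpl35a* ended without Gdf9-Cre replicate 1 (adjusted p = 0.0643), that of *Rpl10* without fl/del Spo11-Cre replicate 3 (adjusted p = 0.0636) and that of *Rpl5* without any 1 of 3 libraries (up to 0.101). The chaperones *Hspa8*, at 805 to 1240.0 against 1324 to 1748 CPM (log2 fold change -0.65, edgeR adjusted p = 5.11e-05), and *Dnajb1*, at 222 to 261 against 279 to 386 CPM (log2 fold change -0.58, edgeR adjusted p = 4.88e-04), were the only called members of 23 stress and immediate-early genes. *Hspa8* lay below all other libraries, with 52.4% of its windows shared. Of 39 proteasome genes *Psmb6* (-0.37) and *Psmb7* (-0.37) were lower, of 83 nuclear genes of oxidative phosphorylation *Sdhc* (-0.56), of complex II, was lower, and of 26 genes for DNA damage and cell death *Casp8* (-0.49), an initiator caspase, was lower. The calls of *Psmb6*, *Psmb7* and *Casp8* ended without any 1 of 5, 7 and 3 libraries, with adjusted p up to 0.153, 0.306 and 0.147. DESeq2 called 6 proteasome genes lower, and 3 higher and 5 lower of the 83 genes of oxidative phosphorylation. Its calls over all 23225 genes tested were 467 higher and 598 lower. Of the 2 tested genes known to differ between C57BL/6 substrains edgeR called 0 (1 at an unadjusted p under 0.05, 0 by DESeq2).

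Some transcripts of the mitochondrial genome rose. Of 13 protein-coding mitochondrial genes 5 were higher and 0 lower, beside 1.21% and 1.69% over all genes, with a median of 0.57. Gdf9-Cre replicate 1 carried much of this: without it the median was 0.20 and 3 were higher, and without Gdf9-Cre replicate 2 the median was 0.85 and 8 were higher. DESeq2 called 3. Their reads cannot all be told from those of nuclear copies. *mt-Atp6*, a subunit of ATP synthase, *mt-Co2* and *mt-Co3*, subunits of cytochrome oxidase, are identical over 678, 681 and 783 bases to *Gm10925*, *Gm28661* and *Gm28437* on chromosome 1, so that a read inside them maps to 2 places. A stretch of 60 bases of the first 2 pairs, from the transcripts of GENCODE M21 (GRCm38), shows the identity, with no letter in capitals because no base differs:
mt-Atp6: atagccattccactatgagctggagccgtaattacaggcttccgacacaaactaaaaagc
Gm10925: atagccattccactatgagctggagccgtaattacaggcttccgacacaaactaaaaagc
mt-Co2: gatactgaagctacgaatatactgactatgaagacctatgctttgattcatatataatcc
Gm28661: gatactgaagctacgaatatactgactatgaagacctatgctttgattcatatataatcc

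*mt-Atp6* was at 18.2 and 10.6 CPM in Gdf9-Cre and 16.2 and 16.5 CPM in Zp3-Cre against 4.48, 4.98, 3.42 and 4.26 CPM in fl/del Spo11-Cre (log2 fold change 1.75, SE 0.33, edgeR adjusted p = 4.17e-04), and *Gm10925* at 20.3 and 11.4 CPM in Gdf9-Cre and 16.5 and 18.6 CPM in Zp3-Cre against 5.48, 4.24, 5.34 and 4.94 CPM in fl/del Spo11-Cre (log2 fold change 1.66, SE 0.32, edgeR adjusted p = 5.68e-04). The members of the pair moved together, as did *mt-Co2* (log2 fold change 1.28, edgeR adjusted p = 0.00290) with *Gm28661* (log2 fold change 1.60, edgeR adjusted p = 0.00466) and *mt-Co3* (log2 fold change 1.22, edgeR adjusted p = 0.00168) with *Gm28437* (log2 fold change 1.21, edgeR adjusted p = 0.00254), and which member the counted reads came from cannot be told apart. *mt-Cytb*, with no shared window, and *mt-Nd2*, at 119 to 281 against 99.9 to 125 CPM (log2 fold change 0.57, edgeR adjusted p = 0.0306), rose by less, and the call of *mt-Nd2* ended without 1 of 5 libraries, with adjusted p up to 0.631. Mitochondrial transcripts took 0.415 and 0.186% of the counts in Gdf9-Cre and 0.237 and 0.270% in Zp3-Cre, and 0.173 to 0.206% in fl/del Spo11-Cre. The difference, 0.277% ± 0.0983 against 0.190% ± 0.0144 (SD, n = 4 each), did not pass the exact permutation test (two-sided, p = 0.0857), and was 0.0409 percentage points without Gdf9-Cre replicate 1.

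Very large differences were found in transcripts of repeated sequence. *Gm44183* (chromosome 2, 38564727 to 38566354, - strand) was at 0.186 and 0.218 CPM in Gdf9-Cre and 0.256 and 0.244 CPM in Zp3-Cre against 9.81, 10.7, 10.3 and 11.02 CPM in fl/del Spo11-Cre (log2 fold change -5.57, SE 0.39, edgeR adjusted p = 1.42e-16). *Gm37110* (chromosome 1, 32485315 to 32486942, + strand) was at 0.218 to 1.71 against 7.75 to 12.9 CPM (log2 fold change -4.12, edgeR adjusted p = 4.90e-13). All windows of each occur in the other, so these 2 are not independent. Both were at 7.75 CPM or more in all 17 other libraries. *Gm20826*, annotated on the Y chromosome although all mice were female, was at 0 to 1.03 against 4.64 to 10.2 CPM (log2 fold change -4.08, edgeR adjusted p = 4.94e-08), with all of its windows in another gene. In the other direction, *Eif1-ps1* (log2 fold change 2.26, edgeR adjusted p = 0.00729), a pseudogene of a translation initiation factor, and *Gm10259* (log2 fold change 1.72, edgeR adjusted p = 1.49e-06) were above all other libraries. Of the 672 called genes with a transcript sequence, 66 have most of their windows in another gene, and 320 have no such window.

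Each late driver was also set against the same fl/del Spo11-Cre libraries, which the 2 comparisons share. With Gdf9-Cre, 104 genes were higher and 143 lower (247, 1.06%), and with Zp3-Cre 364 were higher and 347 lower (711, 3.06%). The counts rested on single libraries: without Zp3-Cre replicate 2 the Zp3-Cre count was 1249, and without replicate 1 it was 207, and without Gdf9-Cre replicate 2 the Gdf9-Cre count was 117. The direct comparison of both drivers called 207 genes (0.891%), 136 higher with Gdf9-Cre and 71 higher with Zp3-Cre, of which 39 were among the 673.

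For genes of the latter kind the combined value averages driver groups that differed. Each group holds 2 libraries that may share a mouse, so driver and mouse cannot be told apart here. *Smc3* was at 389.5 and 369 CPM in Gdf9-Cre and 169.6 and 227 CPM in Zp3-Cre, against 325, 324, 334 and 369 CPM in fl/del Spo11-Cre, and differed between the drivers (log2 fold change 0.96, SE 0.15, edgeR adjusted p = 5.15e-05). *Cdc27* was at 385 and 347 CPM and 194 and 195 CPM, against 343, 327, 320.1 and 331 CPM (log2 fold change 0.95, SE 0.15, edgeR adjusted p = 7.05e-05 between drivers). For both genes the Zp3-Cre libraries lay below all early ones, and the Gdf9-Cre libraries above them, with the exception of *Smc3* in replicate 2, within the early range. The combined call of each gene ended without any 1 of 7 (*Smc3*) and 6 (*Cdc27*) libraries, with adjusted p up to 0.288 and 0.107. *Dnmt1* (log2 fold change 0.69, SE 0.14, edgeR adjusted p = 0.00369) and *Pabpn1l* (log2 fold change -0.70, SE 0.18, edgeR adjusted p = 0.0297) differed between the drivers too. Of the genes with the smallest adjusted p, chosen after their values were seen, *Supt16*, of the FACT histone chaperone, was at 175 and 149 CPM in Gdf9-Cre and 36.7 and 59.1 CPM in Zp3-Cre, against 112 to 137 CPM (log2 fold change 1.78, SE 0.18, edgeR adjusted p = 1.29e-09). *Paip1*, which binds poly(A)-binding protein, was at 298 and 417 CPM in Gdf9-Cre and 158 and 110.2 CPM in Zp3-Cre against 214 to 240.5 CPM in fl/del Spo11-Cre (log2 fold change 1.46, SE 0.16, edgeR adjusted p = 1.28e-08). *Ddb1*, of CUL4 ubiquitin ligases, was at 61.8 and 38.0 CPM in Gdf9-Cre and 147 and 89.6 CPM in Zp3-Cre against 64.0 to 72.5 CPM in fl/del Spo11-Cre (log2 fold change -1.20, SE 0.22, edgeR adjusted p = 4.66e-04). *Mt1*, a metallothionein, rested on 1 library: it was at 492 CPM in Gdf9-Cre replicate 1 and at 1.41 to 3.88 CPM in the other 7.

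**Figure D5:**
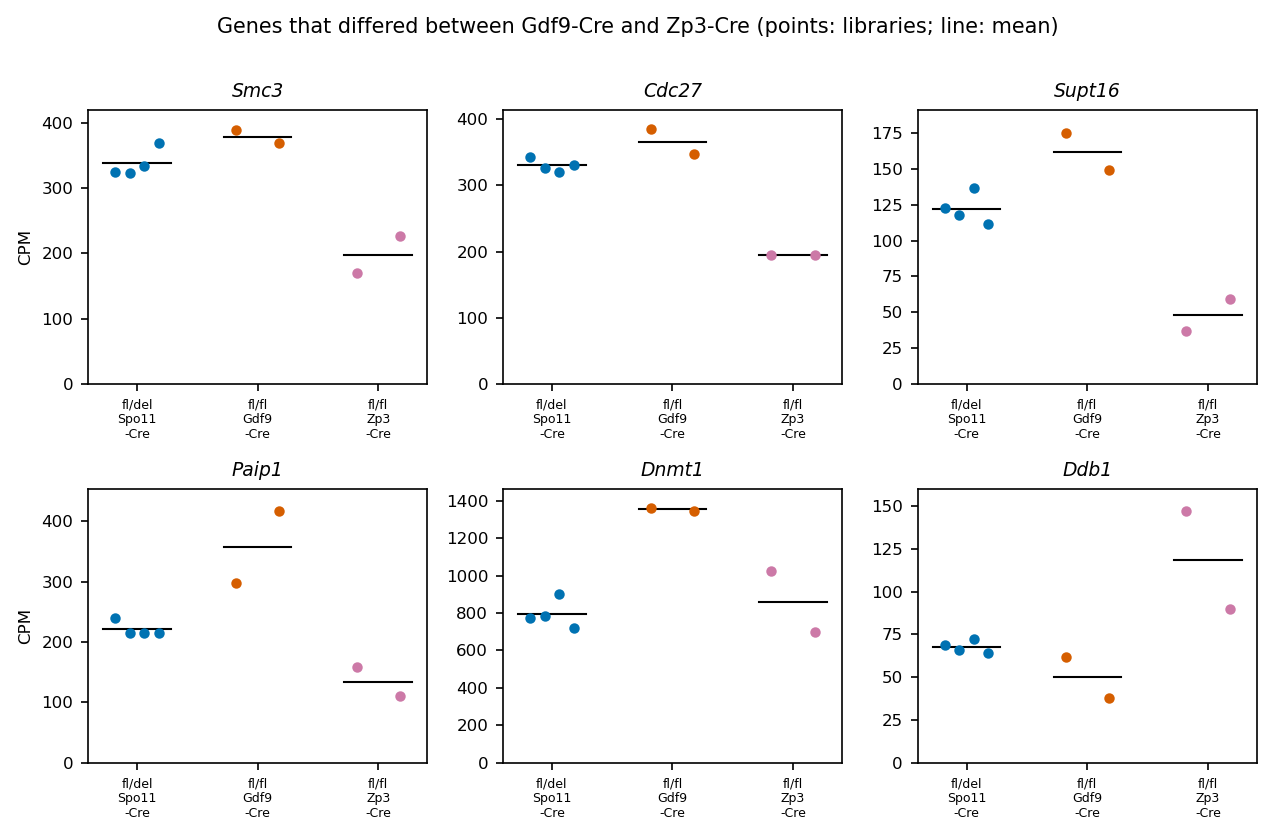
CPM of 6 genes called between Gdf9-Cre and Zp3-Cre in each library (points) of the 3 groups, with the group mean (line) and axes from 0. *Smc3* and *Cdc27* at 169.6 to 227 CPM in Zp3-Cre lie below both other groups, and *Dnmt1* at 1346 and 1362 CPM in Gdf9-Cre above them.

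The directions of the calls differed between short and long transcripts. Of genes of 1 to 2 kb with at least 5 CPM, 132 of 1752 were lower and 30 higher, with a median of -0.12, and of those over 5 kb 44 of 1993 were lower and 74 higher, with a median of 0.04. These splits were not firm. Without Gdf9-Cre replicate 1, 56 of the genes over 5 kb were lower and 43 higher (median 0.01), and on TPM values, which are scaled by length, 56 of those of 1 to 2 kb were lower and 54 higher (median -0.02). Each library was also set against the mean of the 17 libraries outside the fl/fl groups. That mean includes the 4 fl/del Spo11-Cre libraries, which are thus compared in part with themselves, while the fl/fl libraries are not. The median of genes under 2 kb less that of genes over 5 kb was -0.26 and 0.10 in Gdf9-Cre, -0.13 and -0.18 in Zp3-Cre and -0.01 to 0.13 in fl/del Spo11-Cre. Thus 3 of 4 late-driver libraries lay below the early ones and Gdf9-Cre replicate 2 did not. Genes under 2 kb took 36.6 to 41.0% of the counts of the fl/fl libraries and 39.4 to 41.8% of those of fl/del Spo11-Cre (exact permutation p = 0.2). The part of length in the results was not tested. In pools of 3 oocytes less RNA per oocyte and fewer oocytes with a transcript cannot be told apart.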

How the data were processed

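Libraries were grouped by genotype and driver as labelled, into 6 groups, and each library was taken as a replicate. Per the submitters' processing notes and the methods, the authors used fastp for trimming, HISAT2 2.2.1 with the GRCm38 genome for alignment and featureCounts 2.0.3 (Subread) for counting uniquely mapped reads per Ensembl gene, so reads from identical copies are lost or misplaced. The deposited counts are whole numbers per gene over all exons, not normalized. The TPM values were also computed by the authors, by a method not given in the sources used here, and served an alternative only, as did the counts with *Kif11* restricted to exon 22. The files restricted to exon 1 were not used.

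Printed levels are CPM, that is counts scaled to a library total of 1000000. Genes detected in 3 or more of the 21 libraries were fitted with edgeR 4.0.16 (R 4.3.3; TMM, estimateDisp, glmQLFit, glmQLFTest) as 6 groups. The contrast was the mean of the 2 late-driver groups minus fl/del Spo11-Cre, with Benjamini-Hochberg adjustment over all 23225 genes. Single library values were tested with exact permutations (two-sided). Of 54232 genes 54165 have a symbol in GENCODE M21 (GRCm38), from which positions and transcript sequences were taken. A transcript's shared windows are its 50-base windows, every 10 bases, found in a transcript of another gene on either strand.

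Named genes were, in each direction, the 10 non-overlapping protein-coding genes with the largest change and at least 5 CPM in the higher group, the 5 called genes with the highest level, 3 other genes by the rule of the first 10, *Kif11* and the driver genes, and up to 4 called members of each list by adjusted p, with neighbours within 1 megabase. Members and lists were chosen with earlier results of these data known. Alternatives were DESeq2 1.42.0, limma 3.58.1 on log2(TPM + 1), RLE factors, GC offsets, filterByExpr, no filter, thinning to 7205010 counts, the exon 22 table, the 8 libraries alone, libraries of the same name prefix summed, a replicate block and each library left out. The fl/fl libraries as 1 group and the comparison of wt/fl Spo11-Cre with wt/fl were added after the data were seen. The code was tested on simulated data.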

Additional observations from a re-analysis of the deposited data

Results flagged for a closer look

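Among the 79 named genes looked at, 6 had a library of fl/del Spo11-Cre far from the other 3 by Dixon's test, where chance gives about 1 in 20 groups. *Tpx2* was at 407 CPM in replicate 4, below the others, and *Cnot7* at 478 CPM in the same replicate, above them. *Rab3b* was at 149 CPM in replicate 3, below the others. *Rpl35a* at 102 CPM, *Sdhc* at 159 CPM and *Psmb7* at 197 CPM stood above the others in replicate 2.

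Levels differed between the Gdf9-Cre and Zp3-Cre libraries, by the edgeR test of their difference, for 10 named genes. The 2 libraries of each driver may share a mouse, so driver and mouse cannot be told apart. On the log2 scale, Gdf9-Cre minus Zp3-Cre, the difference was 0.69 for *Dnmt1*, 0.96 for *Smc3*, 0.95 for *Cdc27* and -0.70 for *Pabpn1l*. For the 6 genes chosen by the smallest adjusted p in each direction it was 1.78 for *Supt16*, 1.46 for *Paip1*, 7.16 for *Mt1*, -1.01 for *Ube2d2a*, -1.20 for *Ddb1* and -1.35 for *Ppt2*. The value of *Mt1* rests on Gdf9-Cre replicate 1.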

How the results depend on the processing

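No called named gene turned its direction under any alternative, but splits of counts did: more genes were higher than lower on TPM and with the 8 libraries alone, and the median of all genes was above 0 on TPM. Among genes over 5 kb more were lower without Gdf9-Cre replicate 1. The counts of higher and lower genes (281 and 392) were 467 and 598 with DESeq2, 114 and 185 with libraries of the same name prefix summed, and 167 and 156 with the 8 libraries alone, where fewer samples set the spread. On TPM 163 genes were lower. DESeq2 included 95.2% of the 673 calls, limma on TPM 54.4%, the 8 libraries alone 45.5% and prefixes summed 43.7%. For Gdf9-Cre (247) the count was 498 with DESeq2, 146 with prefixes summed and 108 with the 8 libraries alone. For Zp3-Cre (711) these were 1141, 465 and 356, and for Gdf9-Cre against Zp3-Cre (207) 381 with DESeq2 and 70 with the 8 libraries alone. With the replicate block the counts were 302 higher and 483 lower, and 373 for Gdf9-Cre. Same-numbered libraries of different groups did not deviate together (correlations 0.116 and 0.241 for Gdf9-Cre, -0.08 and -0.14 for Zp3-Cre, over 8356 genes), so the numbers were not taken as pairs.

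With each library left out, higher genes numbered 173 to 497, lower genes 241 to 766, Gdf9-Cre calls 117 to 375, Zp3-Cre calls 207 to 1249 and calls between the drivers 127 to 398, and the mitochondrial difference was 0.0409 to 0.117 percentage points. The lone library of a driver was then assumed to vary like the other groups. Higher genes were 175 without fl/del Spo11-Cre replicate 2, 173 without Zp3-Cre replicate 1 and 497 without Zp3-Cre replicate 2. Lower genes were 253, 241 and 248 without fl/del Spo11-Cre replicates 1, 2 and 3, and 251 and 766 without Zp3-Cre replicates 1 and 2. Without Zp3-Cre replicate 2 the Gdf9-Cre count was 375 and that between drivers 398, and without Gdf9-Cre replicate 2 they were 117 and 127. The cause was not tested. Of 78 called named genes 35 were called with each library left out, and 29 under all 20 alternatives. The named calls lost numbered 32 with the 8 libraries alone, 31 with prefixes summed, 27 on TPM, and 8 (without Zp3-Cre replicate 2) to 24 (without Zp3-Cre replicate 1). Depth and 2 libraries per driver limit what could be called among genes of few reads.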

Other observations

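Called genes with at least 5 CPM lay side by side in 57 pairs (neighbours in order whose gap was at most 100000 bases), of which 41 moved the same way and 16 in opposite ways. The pairs of the *Fbxw* cluster and of the nuclear copies of mitochondrial genes are among the 41, and 2 pairs overlap, whose reads cannot be assigned without strand. By kind, 244 protein-coding genes were higher and 345 lower of 15576 tested, and 23 pseudogenes were higher and 13 lower of 3279.

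*Zscan4d*, a gene of the burst of transcription at genome activation, varied among the libraries of each side. It was at 43.6 and 1.74 CPM in Gdf9-Cre, at 2.95 and 5.50 CPM in Zp3-Cre and at 16.8, 16.6, 32.4 and 13.6 CPM in fl/del Spo11-Cre. The high Gdf9-Cre library was the one with *Mt1* at 492 CPM, and it also held the highest mitochondrial share, 0.415%. *Zscan4d* was chosen after its values were seen and belongs to a family of near copies, so its values are uncertain.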
